A study of Mus musculus with 3 samples.

Results

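The genes described here encode developmental homeobox factors and are those whose listed symbol began with Hoxa, Hoxb, Hoxc, Hoxd, Barhl or Pou, or with Dlx, Lhx, Irx, Meis, Pbx, Emx, Otx, Msx, Vax or Pax and a digit, or named a gene of the sine oculis family, to which Six4 and Six5 belong, with 1 Pax gene left out by the rule. By this rule 38 of the 14473 gene names in the deposited table were members, and 87 of its 37271 merged regions listed at least 1 of them. The rule used symbols alone and no measured value, but it was set with earlier results of these data known. The label holds for most members but not for all: 4 of the 38 are non-coding transcripts that lie opposite or beside a homeobox gene, Pou2af1 encodes a coactivator without a homeodomain, and the Pax2, Pax5 and Pax8 proteins carry only part of one. Meis2 appears in the table under its older symbol Mrg1 and so is not a member, and its values are given separately.

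The regions come from chromatin immunoprecipitation of Nkx2.2 followed by sequencing, in 2 kinds of wild-type C57BL/6 mouse cell. Oligodendrocyte progenitor cells (OPCs) were selected with an antibody to PDGFRA from cortices at postnatal day 7 and kept dividing in serum-free medium with PDGF-AA (10 ng/mL), NT-3 (1 ng/mL) and CNTF (10 ng/mL). Oligodendrocytes (OLs) were obtained from such OPCs by taking PDGF-AA away and culturing them for 48 h with T3, a thyroid hormone, at 40 ng/mL. The antibody was a monoclonal against Nkx2.2. Each state has 1 ChIP library, the number of mice behind it is not given in the labels, an input library was not analysed here, and no marker transcript was measured that could check the labelled cell types. With 1 library per state no test between states was possible, every difference below lies between these 2 libraries, and no p-value is given. Sequencing depth is unknown.

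Homeobox genes encode transcription factors that bind DNA through a homeodomain and set regional and cell identity in the embryo. Nkx2.2 is itself a homeodomain factor: in the ventral neural tube it holds progenitors to a ventral fate together with Groucho corepressors and in opposition to factors of neighbouring domains, and later it takes part in oligodendrocyte differentiation. Hox genes, which lie in the A to D clusters, pattern the hindbrain, spinal cord and trunk. Pbx and Meis proteins bind DNA together with Hox and other homeodomain factors, and POU factors such as Pou3f1, Pou3f2 and Pou3f3 act in neural progenitors and glia.

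The same symbol rule finds 107 protein-coding genes in RefSeq. With Meis2 counted from its regions under Mrg1, 35 of them had an Nkx2.2 region, or 32.7% (exact 95% interval 23.95 to 42.5%), and 34 without it. Of all 21896 RefSeq protein-coding genes, 56.6% had a region, 33% had one called in OPC and 54% had one called in OL. Among the 107 homeobox genes, Meis2 included, 17 (15.9%) had an OPC call and 34 (31.8%) an OL call. Groups differed widely. Only 1 of 39 Hox genes was listed, against 34 of the other 68, which is 2.56% (0.0649 to 13.5%) and 50% (37.6 to 62.4%). None of the Hoxb, Hoxc and Hoxd genes, and neither Otx gene, was listed with a region. All 4 Pbx genes had one, as did 10 of 16 Pou genes, 5 of 8 Pax genes, 4 of 6 Irx genes, 2 of 3 Msx genes, 2 of 6 sine oculis genes, 2 of 8 Lhx genes, 1 of 6 Dlx genes and, with Meis2, 2 of 3 Meis genes. Emx and Barhl had 1 gene of 2 each, and the Vax group was represented by a non-coding transcript only. Gene length was not taken into account in these counts, and the intervals treat neighbouring genes of a cluster as independent.

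**Figure D1:**
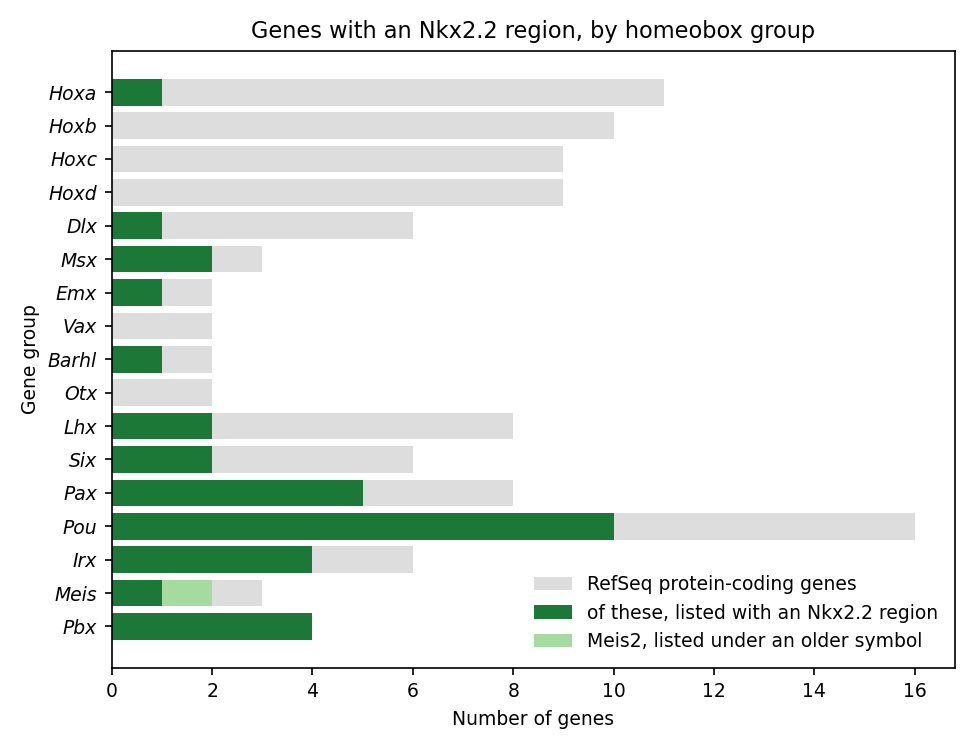
Number of RefSeq protein-coding genes in each group of homeobox genes (grey bars) and the number of them listed with an Nkx2.2 region in the deposited table (green bars), with Meis2, listed under an older symbol, in light green. The 4 Hox clusters hold 39 genes and 1 listed gene, while all 4 Pbx genes were listed.

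The single Hox region lay 9840 bp upstream of Hoxa13, the gene at the posterior end of the HoxA cluster, at chr6:52220434-52220995 (mm9). Its average signal was 3.15 in OPC and 5.82 in OL, with a call in OL only. Over the whole table, the authors' assignment reached up to 10534 bp upstream of a start. No Hox gene had an OPC call, and 0 of 39 allows a share of up to 7.69% (3 counts of the total). This limit treats neighbouring Hox genes of a cluster as independent and may be too narrow. Other homeobox families, taken from a list of 96 matched genes such as the Nkx, Zfhx, Cux and Zeb genes, had a region in 43 cases (44.8%, 34.6 to 55.3%), of which 27 had an OPC call and 41 an OL call. Their 142 regions were called in both libraries in 37 cases, in OL only in 82 and in OPC only in 23 (16.2%). Over all regions these shares were 23.8%, 61.4% and 14.7%. The Nkx2-2 gene itself had 4 regions, the highest with 5.13 in OPC and 9.2 in OL.

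Calls at the 87 regions were set beside all regions and beside the 26342 regions that list a gene, as every homeobox gene region does. OPC calls were present at 34 regions (39.1%, 28.8 to 50.1%), against 38.6% of all regions and 37.7% of those with a gene. OL calls were present at 68 (78.2%, 68.0 to 86.3%), against 85.3% and 87.03%. Of the 87, 53 were called in OL only (60.9%, with 61.4% of all regions and 62.3% of those with a gene) and 15 in both (17.2%, with 23.8% and 24.8%). A call in OPC only was made at 19 (21.8%, 13.7 to 32.0%). The background for this was 14.7% of all regions, inside that interval, and 12.97% of those with a gene, just below it. Intervals cover counting error over regions only, and regions of 1 gene share their surroundings. Pbx3, Pou2f1 and Pou3f3 together held 8 of the 19 OPC-only regions. Without these 3 genes, chosen after their values were seen, the share was 16.7% (11 of 66).

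**Figure D2:**
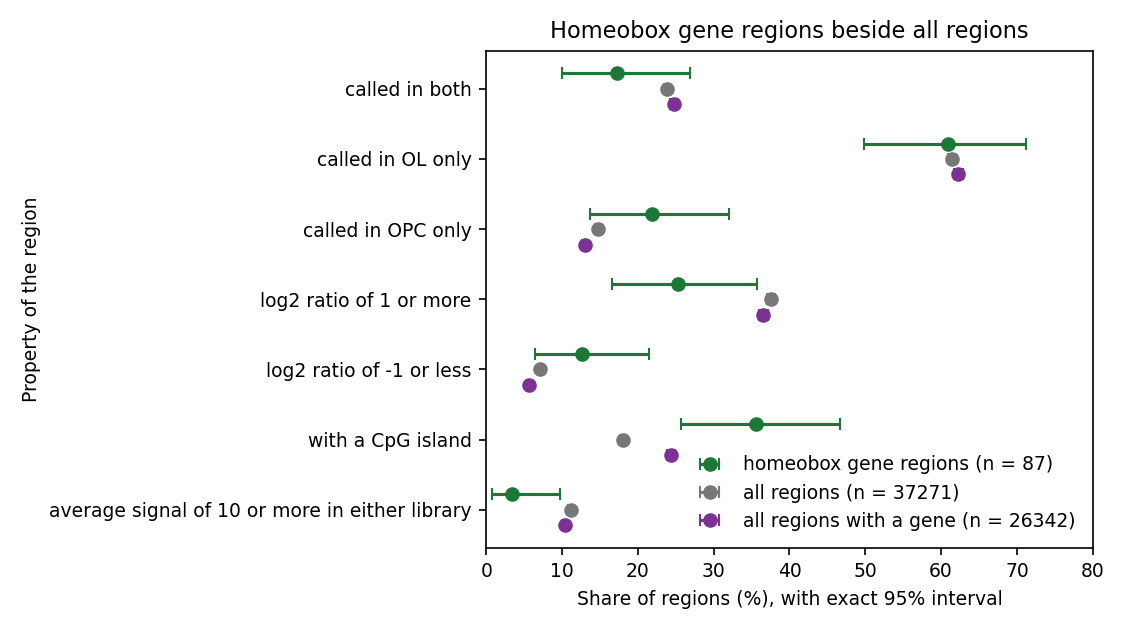
Share of regions (x axis, percent) with each property among the 87 homeobox gene regions (green) among all 37271 regions (grey) and among the 26342 that list a gene (purple), with exact 95% intervals. For calls in both and in OL only the green intervals include the grey and purple points, for OPC only they include the grey point (14.7%) and lie just above the purple one (12.97%), and the CpG island share of 35.6% lies above 18.0% and 24.4%.

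Few homeobox gene regions had a high signal. The mean of the OPC and OL signals was above the median of all regions at 38 of the 87 (43.7%, 33.1 to 54.7%). Of all regions 50.0% were above it. The median average signal was 3.46 in OPC and 4.5 in OL, against 3.0 and 5.0 over all regions, on the scale the authors left it. An average signal of 10 or more in either library was reached by 3 of the 87 regions (3.45%, 0.717 to 9.75%), against 11.1% of all regions. These 3 regions lay in Pax7, Pax2 and Pbx3. The log2 ratio used here is log2((OL + 1) / (OPC + 1)) of the average signal, so that 1 stands for 2 times as much after adding 1 unit. Its median was 0.55 over the 87 regions and 0.74 over all regions. Of the 87 regions, 22 (25.3%) reached 1, against a background of 37.5%, and 11 (12.6%) reached -1 or below, against 7.03%. Above the median signal of the table, 2 of 38 regions (5.26%) reached -1 or below, against 5.47% of all regions. This split depends on the scale: it became 13 and 14 when the median of regions called in both was set to 0, with 27.2% and 10.1% over all regions, and 7 and 21 when the median of all regions was set to 0, with 13.2% and 17.5%. On the deposited scale and without Pbx3, Pou2f1 and Pou3f3, the count at -1 or below was 4 and the median 0.60. Signal was listed at 0 in OL at 4 regions (4.60%, 1.27 to 11.4%), against 0.859% of all regions, and at 0 in OPC at 6 (6.90%), against 6.04%.

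**Figure D3:**
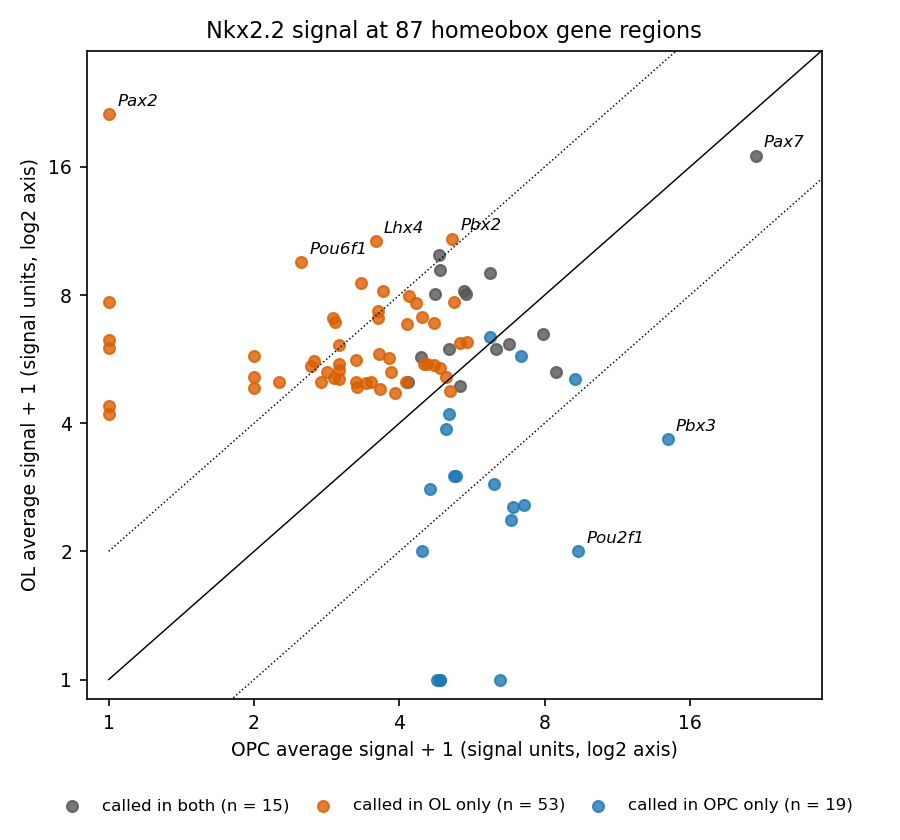
Average Nkx2.2 signal plus 1 in OPC (x axis) and OL (y axis), both in signal units on log2 axes, at the 87 regions, coloured by the library in which an interval was called. The solid line marks equal signal and the dotted lines a log2 ratio of 1 and -1; Pax2, Pax7 and Pbx3 stand apart from the bulk of regions, which lies below 10 in both libraries.

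CpG islands were often assigned to homeobox gene regions. An island was assigned to 31 of the 87 (35.6%, 25.6 to 46.6%), against 18.0% of all regions and 24.4% of all regions that list a gene. Some of these islands lie at regions where another listed gene has the nearer start, as for Msx3, Lhx1 and most Pbx2 regions. The island share without such regions was not computed. Islands were present at 9 of the 15 regions called in both libraries, 20 of the 53 called in OL only and 2 of the 19 called in OPC only. The same order held over the whole table, at 24.9%, 17.8% and 7.99%. By position, 21 of the 87 regions had a listed start within 1 kb (24.1%, 15.6 to 34.5%), against 17.7% of all regions and 25.1% of those that list a gene. Another 42 were inside a gene (48.3%, 37.4 to 59.2%), 13 farther upstream (14.9%, 8.20 to 24.2%) and 11 downstream (12.6%, 6.48 to 21.5%). These shares were 42.0%, 6.10% and 4.81% of all regions. Of those that list a gene they were 59.5%, 8.64% and 6.80%. In genes, 13 of the 42 regions (31.0%) were called in OPC only, against 14.8% of all regions in genes, and the median log2 ratio was 0.26 against 0.86. For 14 of the 87 regions another listed gene had the nearer start.

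The middle of 15 regions lay within 1 kb of the start of a homeobox gene, at 16 genes, since Emx2 and the opposite-strand Emx2os share one. Of these, 12 reached over a start, while the regions of Pbx3, Six4 and Six5 ended short of it. OL calls were present at all 15 and OPC calls at 6 (40%), and 0 were called in OPC only, which allows a share of up to 20%. Over all regions within 1 kb of a start the shares were near these, with 92.9% called in OL, 40.6% in OPC and 7.08% in OPC only. The starts with calls in both states belonged to Meis1, Pbx3, Pou2f1, Pou3f2, Irx5 and Six5. Meis1, the gene of a TALE cofactor of Hox and Pbx proteins, had 5.16 in OPC and 8.0 in OL. Pou3f2, also called Brn2 and active in cortical progenitors, had 5.75 and 5.14, nearly the same in both. Six5, which lies beside the kinase gene Dmpk, had 3.82 and 8.95, a log2 ratio of 1.04. Pbx3 had 5.33 and 4.96 at a region whose middle was 844 bp before its start. Pou2f1, the gene of the widely expressed factor Oct-1, had 4.06 and 4.97, and Irx5, an Iroquois patterning gene, had 4.35 and 3.88. So 3 of these 6 starts, those of Six5, Meis1 and Pou2f1, had the higher value in OL.

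The remaining 9 start regions were called in OL only. Their OL signal ran from 3.71 at Irx1 to 6.96 at Irx2, whose OPC values were 2.92 and 3.19. Msx2, a target of BMP signalling, had 1.94 in OPC and 5.91 in OL. Pou3f4 (Brn4) had 1.0 and 4.75, and Irx3 had 2.0 and 5.11. Pbx4 had 1.91 and 6.07, and Six4 had 5.0 in OL and was listed at 0 in OPC. These 5 had a log2 ratio of 1 or more. The start shared by Emx2, a cortical patterning gene, and Emx2os had 3.13 and 4.0.

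For 8 genes a region covered all of the 250 bases before the deposited start and RefSeq gives 1 start, so the promoter letters were set beside the signal. Whether the deposited mm9 start and the RefSeq start are the same was not checked. It is therefore not established that the region covers the printed letters. The windows of 7 of the 8 genes follow, 5′ to 3′ on the gene's strand and ending at the base before the RefSeq start. They are from RefSeq on GRCm38.p6, while the regions are on mm9. Meis1 and Pou3f2 are shown as starts called in both states, Irx3, Msx2, Pbx4 and Pou3f4 as OL-only starts whose log2 ratio reached 1, and Emx2 because it holds the longer motif. Capitals mark AAGTG, a core of sites bound by NK2-class homeodomains, on either strand (CACTT on the reverse).
Meis1: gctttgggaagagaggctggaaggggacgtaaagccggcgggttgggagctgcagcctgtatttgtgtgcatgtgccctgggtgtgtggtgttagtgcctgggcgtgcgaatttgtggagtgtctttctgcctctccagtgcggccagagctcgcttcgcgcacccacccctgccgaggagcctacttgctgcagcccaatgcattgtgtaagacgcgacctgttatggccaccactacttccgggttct
Pou3f2: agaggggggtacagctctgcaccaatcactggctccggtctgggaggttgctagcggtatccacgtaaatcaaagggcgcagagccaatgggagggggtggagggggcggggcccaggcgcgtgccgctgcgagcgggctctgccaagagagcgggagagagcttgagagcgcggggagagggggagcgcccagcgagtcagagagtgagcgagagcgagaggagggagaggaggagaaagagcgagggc
Irx3: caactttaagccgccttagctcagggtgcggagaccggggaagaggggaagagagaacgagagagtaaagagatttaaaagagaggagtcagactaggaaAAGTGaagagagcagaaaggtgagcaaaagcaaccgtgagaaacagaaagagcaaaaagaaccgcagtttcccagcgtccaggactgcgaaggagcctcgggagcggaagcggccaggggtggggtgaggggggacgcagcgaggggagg
Msx2: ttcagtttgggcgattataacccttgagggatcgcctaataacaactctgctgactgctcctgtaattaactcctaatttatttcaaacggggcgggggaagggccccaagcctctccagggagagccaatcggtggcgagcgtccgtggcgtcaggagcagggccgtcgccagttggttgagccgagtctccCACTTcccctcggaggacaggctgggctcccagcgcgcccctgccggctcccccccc
Pbx4: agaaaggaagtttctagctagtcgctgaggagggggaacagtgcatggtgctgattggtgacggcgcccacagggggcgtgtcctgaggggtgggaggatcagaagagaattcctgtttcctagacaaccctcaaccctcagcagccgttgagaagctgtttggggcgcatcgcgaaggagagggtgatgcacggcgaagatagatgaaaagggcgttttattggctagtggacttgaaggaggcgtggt
Pou3f4: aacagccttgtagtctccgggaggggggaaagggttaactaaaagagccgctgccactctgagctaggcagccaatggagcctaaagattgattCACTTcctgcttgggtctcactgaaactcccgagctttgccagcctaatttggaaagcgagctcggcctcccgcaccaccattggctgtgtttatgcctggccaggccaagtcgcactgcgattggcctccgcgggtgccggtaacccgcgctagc
Emx2: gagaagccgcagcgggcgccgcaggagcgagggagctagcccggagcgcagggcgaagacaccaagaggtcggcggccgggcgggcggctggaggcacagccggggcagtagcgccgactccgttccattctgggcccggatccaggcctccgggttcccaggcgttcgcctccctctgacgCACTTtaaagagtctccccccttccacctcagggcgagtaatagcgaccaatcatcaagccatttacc

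The windows lie at chr11:19018970-19019219 (minus strand) for Meis1, chr4:22488367-22488616 (minus) for Pou3f2, chr8:91801655-91801904 (minus) for Irx3, chr13:53472781-53473030 (minus) for Msx2, chr8:69832374-69832623 (plus) for Pbx4, chrX:110814129-110814378 (plus) for Pou3f4 and chr19:59458440-59458689 (plus) for Emx2. AAGTG was present once in Irx3, Msx2, Pou3f4, Emx2 and in the window of Irx2, which is not printed, and in none of Meis1, Pou3f2 and Pbx4. It starts 150 bases before the RefSeq start in Irx3, 57 in Msx2, 156 in Pou3f4, 68 in Emx2 and 166 in Irx2. Of all 32851 promoter windows of this length 40.7% hold it, and of the 101 windows of genes that fit the symbol rule 31.7% do. The longer TNAAGTG, which contains AAGTG, was found in Emx2 alone of the 8, with 10.1% over all windows. TAATTA, a core of many homeodomain sites, was found in Msx2 alone, with 4.84% over all windows. The 8 windows had a median of 60.6% G and C (55.6 to 68.4%) and 14.5 CG pairs (12 to 24). The 101 windows of genes that fit the symbol rule had medians of 59.2% and 13, and all windows 52.4% and 6, so the 8 were close to the homeobox genes as a whole.

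Pbx genes, whose products pair with Hox, Meis and other homeodomain proteins on DNA, held 23 regions, of which 15 were called in OL only, 7 in OPC only and 1 in both. Their median log2 ratio was 0.62, with 7 regions at 1 or more and 5 at -1 or less. Over all regions, 61.4% were called in OL only, 14.7% in OPC only and 23.8% in both. The median over all regions was 0.74, with 37.5% at 1 or more and 7.03% at -1 or less.

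Pbx3 had the strongest OPC-only region of the group. At chr2:34219239-34219986, 7944 bp into the gene, OPC had a signal of 13.4 and OL one of 2.67, for a log2 ratio of -1.97. Regions at 140361 and 177671 bp into the gene were also called in OPC only, with 3.86 and 5.29 in OPC and 0 and 1.88 in OL. OL-only regions lay 1070, 12250, 114121, 121008 and 137713 bp into the gene. The highest of these, at 121008 bp, had 2.71 in OPC and 7.17 in OL, and the one at 137713 bp had 2.62 and 6.36. The latter lies at chr2:34089619-34090068, and the OPC-only region listed at 0 in OL lies close by at chr2:34086975-34087416. Pbx3 therefore had a ratio of 1 or more at 3 regions and of -1 or less at 3.

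Pbx2 and Pbx4 had no OPC call. Pbx2 lies among closely spaced genes on chromosome 17, and its 4 regions also list neighbours such as Notch4 and Rnf5. The highest, with 4.14 in OPC and 9.85 in OL, was 11502 bp from the Pbx2 start, and Rnf5 is the nearest listed gene there. A region 1186 bp into Pbx2 had 2.25 and 4.0. Meis1 had 4 regions, with 3.46 and 6.09 at 1731 bp upstream in addition to the start. Deep in the gene, 106224 bp from the start, an OL-only region had 1.62 and 4.46, and 486 bp away an OPC-only region had 5.17 and 5.38, so the library without the call had the slightly higher average.

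**Figure D4:**
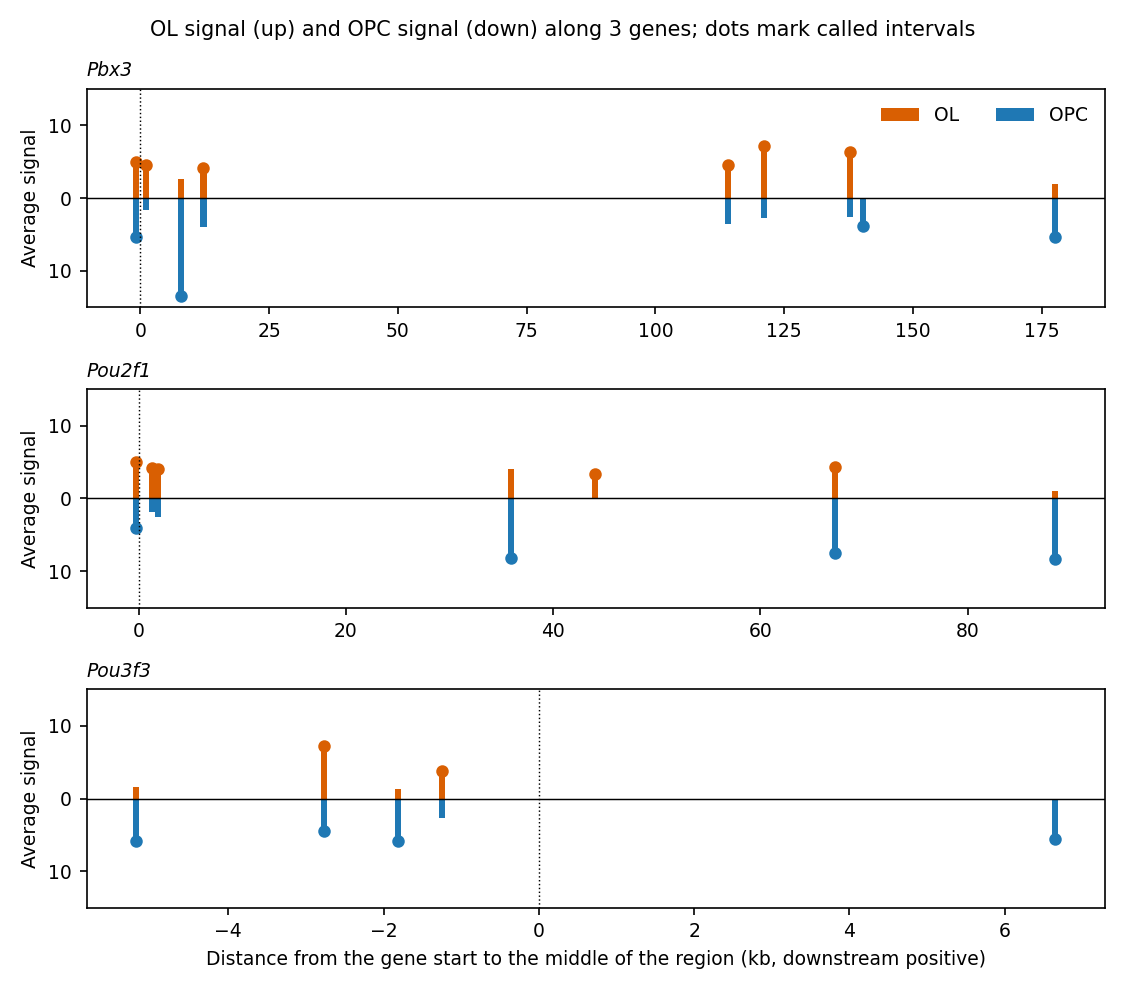
Average signal of each region in OL (upward bars) and OPC (downward bars), in signal units, against the distance of its middle from the gene start (x axis, kb), for Pbx3, Pou2f1 and Pou3f3; dots mark libraries with a called interval. OPC-only and OL-only regions are interspersed along Pbx3 and Pou2f1, and the OPC bar of 13.4 in Pbx3 is the tallest. The Pou3f3 regions lie upstream or downstream of that gene, and 1 of them is OL-only.

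Meis2, a TALE gene outside the rule because it is listed as Mrg1, showed a like mixture at 9 regions, with 4 called in OL only, 3 in OPC only and 2 in both. Its highest region, 23104 bp into the gene, had 6.38 in OPC and 13.7 in OL. A region 128384 bp into the gene had 4.0 in OPC and was listed at 0 in OL, and one at 19479 bp had 5.06 and 1.0. With these regions the count of OPC-only regions was 22 of 96 (22.9%), against 14.7% of all regions and 12.97% of those with a gene.

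POU genes held 28 regions, the most of any group, with 15 called in OL only, 8 in OPC only and 5 in both. The median log2 ratio was 0.56, with 7 regions at 1 or more and 5 at -1 or less. The shares of all regions were 61.4% in OL only, 14.7% in OPC only and 23.8% in both. At 1 or more there were 37.5% of all regions and at -1 or less 7.03%. Pou2f1 had 7 regions. Inside the gene, the region 88466 bp from the start (chr1:167844034-167844564) gave 8.38 for OPC and 1.0 for OL, or -2.23 on the log2 scale. Another at 35907 bp had 8.25 and 4.08 and was called in OPC only, and one at 67216 bp had 7.46 and 4.28 with calls in both. Among the 87 regions, only those of Pax7 and Pbx3 had more OPC signal than these 3. Between them a region at 44021 bp had 3.38 in OL and was listed at 0 in OPC. Nearer the start, regions at 1294 and 1861 bp had 1.92 and 2.5 in OPC and 4.11 and 4.0 in OL.

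Pou3f3 (Brn1), which acts with Pou3f2 in upper-layer neurons and their progenitors, had 5 closely spaced regions, 4 of them with an OPC call. Upstream of its start by 5188, 2766, 1817 and 1249 bp, the OPC signal was 5.87, 4.46, 5.82 and 2.65. The OL signal at the same regions was 1.54, 7.19, 1.38 and 3.82. The region at 1817 bp was called in OPC only and the one at 1249 bp in OL only, and the table lists them 8 bp apart. A region 6654 bp from the start, downstream of the gene, was listed at 0 in OL and had 5.48 in OPC, giving the log2 ratio of -2.70 that was the lowest among the 87. All 5 regions also list 2610017I09Rik, which has the nearer start at the 4 upstream ones.

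Pou3f1 (Oct-6 or SCIP), known in promyelinating Schwann cells and in the oligodendrocyte lineage, had 3 regions and no region within 1 kb of its start. At 1724 bp upstream it had 2.0 in OPC and 4.5 in OL, and 140 bp from that region another, 1143 bp upstream, had 4.2 and 2.0. Its highest region, 5507 bp from the start and downstream of the gene, had 2.33 and 7.56. Pou3f4 had, besides its start, an OPC-only region 3022 bp upstream with 4.0 in OPC and 2.88 in OL. Pou3f2 had a second region, 10918 bp from its start, with 2.63 and 4.83. Members of the Pou3 group thus had OPC-only regions at Pou3f1, Pou3f3 and Pou3f4 and none at Pou3f2.

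Pou6f1 (Brn5) had the largest positive log2 ratio of the POU genes among regions above the median signal of the table. Its region at chr15:100396788-100397448, downstream of the gene, had 1.5 in OPC and 8.57 in OL, and a second one 1.0 and 4.14. Pou2f2 (Oct-2), a B-cell factor, had 2.27 and 3.86 at its higher region and 3.21 in OL with 0 in OPC at the other. Pou2f3 had 4.2 and 6.73 at 5513 bp upstream, and Pou2af1, the B-cell coactivator, had 4.5 and 7.05 at 5251 bp upstream with calls in both states.

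Regions close to each other were compared over the table, because several of those above differ in state. Among regions with a gap of at most 1000 bp, 10 neighbouring pairs both list a homeobox gene of the set. In 3 of the 10, at Pou3f3, Pou3f1 and Meis1, 1 region was called in OPC only and the other in OL only. Over all 2050 such pairs in the table this held for 262, or 12.8%. The homeobox count rests on 10 pairs, and the difference was not tested. Both OPC-only and OL-only regions were present at 9 of the 38 genes (23.7%), against 14.6% of all gene names. Among genes with 4 or more regions the counts were 5 of 7 and 50.8% of 2383.

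Pax genes held the highest values of the set in both libraries. Pax7, a paired-box factor of the dorsal neural tube, neural crest and muscle stem cells, had 1 region, 25326 bp into the gene at chr4:139363213-139363902, with 20.9 in OPC and 16 in OL. Its highest signals were 56 and 54, and both libraries had a call. Pax2, a factor of the midbrain-hindbrain boundary, eye and kidney, had 1 region, 68413 bp into the gene at chr19:44900087-44900508, where OL had 20.3 and OPC was listed at 0, and the log2 ratio, 4.41 with 1 unit added, was the highest of the set. Its highest signal in OL was 42. These values lay far above those of the other Pax genes named here, whose regions stayed at or below 8.18 in both libraries.

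Pax5, a B-cell and midbrain factor, had 4 regions inside the gene, all with an OL call. The one 15870 bp from the start had 3.86 in OPC and 8.18 in OL with calls in both, and the others, at 5898, 109367 and 133009 bp, had 3.5 to 3.86 in OPC and 4.4 to 4.5 in OL. At the regions 5898 and 15870 bp from the start, 5730488B01Rik is the nearer listed gene. Pax3, close in sequence to Pax7, had 3.18 and 4.0, called in both. Pax8, a thyroid and kidney factor, had 4.23 in OPC and 2.0 in OL with a call in OPC only. Over the 10 Pax regions the median log2 ratio was 0.24, with 1 region at 1 or more and 0 at -1 or less. All regions had a median of 0.74, with 37.5% at 1 or more and 7.03% at -1 or less.

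The remaining groups had few regions, and apart from 1 region each of Irx5 and Vax2os2 all were called in OL. An OL call was the usual case, present at 85.3% of all regions and 87.03% of those with a gene. Irx genes, which lie in clusters and pattern the neural plate, had 8 regions and 7 OL calls. Beside their starts, Irx2 had 2.41 and 3.96 at 11031 bp and Irx3 had 2.25 and 4.62 at 3405 bp, both downstream of the gene. Irx5 also had 4.52 and 5.19 at 1628 bp upstream and an OPC-only region 4454 bp from the start with 4.07 in OPC and 3.2 in OL. Lhx4, a LIM factor of motor neurons and pituitary, had 2.57 and 9.71 at chr1:157543009-157543253, downstream of the gene and 41605 bp from its start, and 3.71 and 5.88 at a second region. For Lhx1 the listed region (4.33 and 5.16) has Aatf as its nearest gene. For Msx3 the region (4.08 and 3.75) has Zfp511 as its nearest gene.

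Dlx2, which favours interneuron over oligodendrocyte fate in the ventral forebrain, was listed with the antisense transcript Dlx1as at a region 1311 bp upstream of the Dlx2 start (chr2:71385932-71386287). There OPC was listed at 0 and OL had 6.73. Six5 had a second region, 5618 bp upstream and inside Dmpk, with 2.62 and 6.08. Barhl1, a factor of cerebellar and inner-ear neurons, had 3.33 and 6.67 at 7659 bp upstream. Emx2os had 3.75 and 7.06 at a region 40484 bp from its start, called in both states. The region of the non-coding Vax2os2 had 3.85 in OPC and was listed at 0 in OL, with an OPC call only, at chr6:83640384-83640857.

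**Figure D5:**
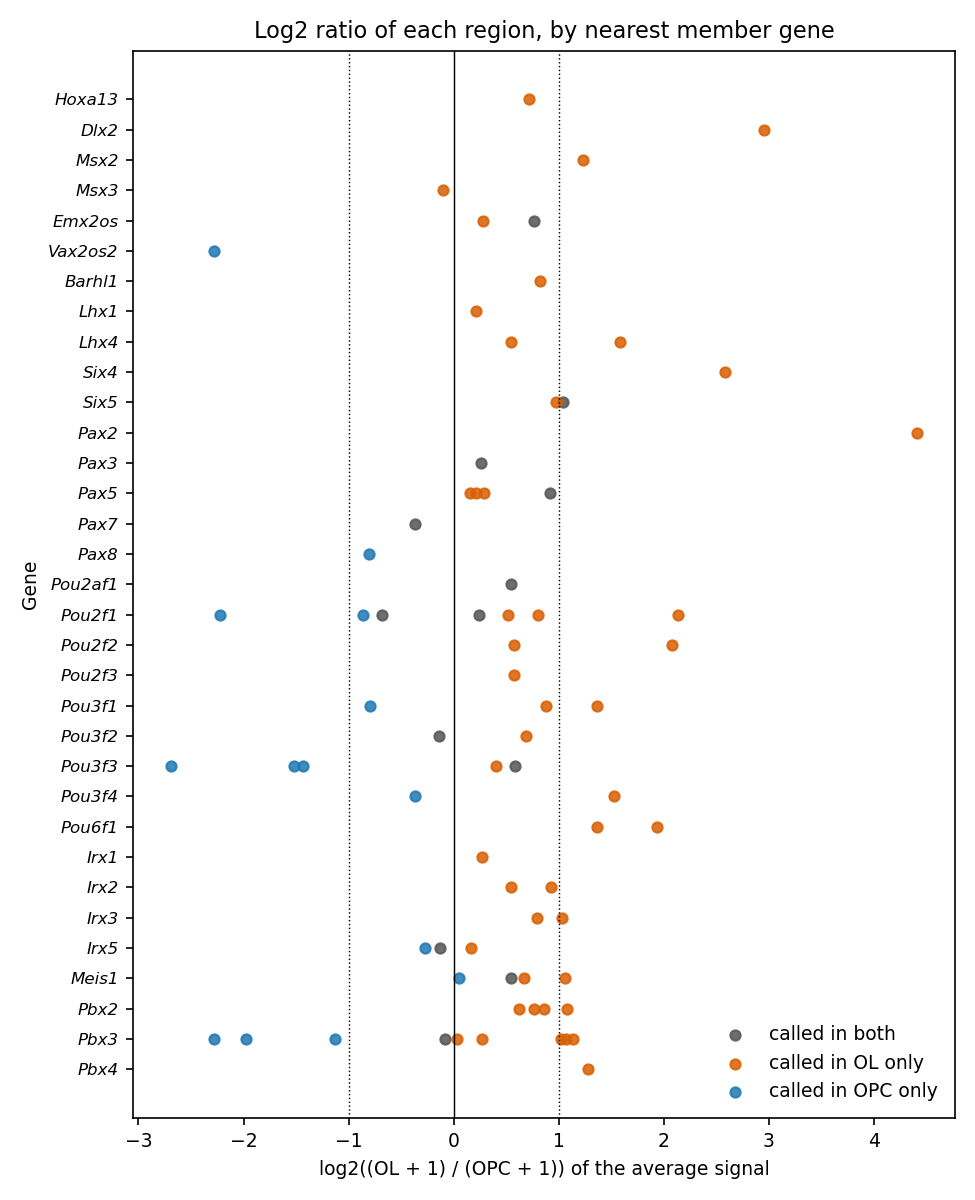
Log2 ratio of OL to OPC average signal with 1 unit added (x axis) for 73 regions of 33 genes, each under its nearest gene of the set, coloured by the library with a call; the solid line marks 0 and the dotted lines -1 and 1. Plotted regions below -1 belong to Vax2os2, Pou2f1, Pou3f3 and Pbx3, and Pax2 has the highest ratio at 4.41.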

How the data were processed

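Nkx2.2 ChIP-seq was analysed from 1 table of merged regions. Per the submitters' processing notes the tools were MACS 1.4.2 and BWA, with mm9 as the mouse build. Per the file headers the authors' regions each hold 1 or more called intervals, with a call or none in each library. The deposited signal values are the average and the highest signal of each region, while for their scaling, the calling threshold and the use of the input the sources used here give nothing. Sequencing depth is unknown. Coordinates are printed as deposited, with no statement of the base they count from. Members and lists were chosen with earlier results of these data known.

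Regions were counted once each, and log2((OL + 1) / (OPC + 1)) was computed with Python 3.11.15 and pandas 2.3.3, with no filter on low signal. The calculation was tested on simulated data. A region belongs to a start where the deposited distance from its middle is within 1 kb. Shares carry exact Clopper-Pearson 95% intervals (scipy 1.17.1). No test between states was run. Gene names came from RefSeq (GRCm38.p6): all 38 member names and 90.1% of the 14473 names matched. No mm9 genome was used, so no region sequence is printed and region density over the Hox spans was not computed.

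Named genes are those of the 10 highest regions in each library, the 10 largest ratios in each direction above the median signal, genes with 4 or more regions, starts called in both libraries and the highest gene of each group. Other members are given beside them, and some members are counted but not reported here.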

Additional observations from a re-analysis of the deposited data

How the results depend on the processing

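The median log2 ratio of 0.55 over the homeobox gene regions became 0.66 with the highest signal in place of the average, 0.30 with the median of regions called in both set to 0 (a shift of 0.24) and -0.19 with the median of all regions set to 0 (a shift of 0.74). In the last case the median of all regions is 0 by construction. The 22 regions with a ratio of 1 or more became 13 with a pseudocount of 2, 36 with the highest signal, 13 and 7 after the 2 rescalings, 8 of 38 above the median signal and 14 of 43 under stricter calls (signal of 5 or more). For all regions the shares at these settings were 27.4%, 52.2%, 27.2%, 13.2%, 30.6% and 42.4%. The 11 regions at -1 or less became 21 after rescaling on all regions (24.1%, with 17.5% of all regions), 2 of 38 above the median signal (5.26%, with 5.47% of all regions, so the share was no longer above the background), 7 of 43 under stricter calls (16.3%, with 7.23%) and 4 of 66 without Pbx3, Pou2f1 and Pou3f3 (6.06%). Under stricter calls there were 16 OPC calls (18.4%, with 20.8% of all regions) and 31 OL calls (35.6%, with 51.6%). Both calls met this limit at 4 regions (4.60%, with 11.8%), and only the OPC call did at 12 (13.8%, with 9.04%). These 12 include 1 region each of Pou2f1 (7.46 in OPC and 4.28 in OL) and Pbx3 (5.33 and 4.96) with deposited calls in both libraries. With the deposited calls and without Pbx3, Pou2f1 and Pou3f3, 22 of 66 regions had an OPC call (33.3%, with 38.6% of all regions). Of the same 66, 11 were called in OPC only (16.7%, with 14.7%). Within 2 kb of a start there were 33 regions instead of 21. Leaving out Msx2 left 1 of the 2 Msx regions, that of Msx3 at -0.10, in place of a median of 0.57. Leaving out Pax5 changed the median of the Pax regions from 0.24 over 10 regions to -0.016 over 6. The 4 Pax5 regions had ratios of 0.15 to 0.92, and the other 6 Pax regions lie on both sides of 0. The settings that leave out Pbx3 or the 3 genes, or add the Meis2 regions, were chosen after seeing the data. Input and depth were not used, so weak values cannot be told from background. No paired analysis was possible because each state has 1 library.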
